A study of Homo sapiens with 6 samples.

Results

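U3 is the snoRNA that 5 human genes encode: SNORD3A, SNORD3B-1, SNORD3B-2, SNORD3C and SNORD3D. The genes were chosen by name from the GENCODE release 44 annotation, and the positions analysed are those listed inside each gene on its own strand. They are 5 of the 4948 annotated genes with a listed position. They hold 303 of the 176343 positions listed after reverse transcription with imbalanced dNTP and 346 of the 246881 listed for the input with balanced dNTP, of which 213 and 35761 were listed for both. No listed position lay on the opposite strand of these genes or beyond the 217 nt of U3.

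2′-O-methylation (Nm) was measured in chromatin-associated RNA (caRNA) of HepG2, an established human liver cancer line, by Nm-mut-seq in 3 replicates. Each replicate came from untreated cells of this single line, RNA shorter than 200 nt had been removed, and the adapter-ligated RNA was split between both reverse transcription reactions. The imbalanced dNTP reaction held 1 mM dATP and 2 µM of each of the other dNTPs, a supply under which Gm, Am and Cm are read as T, whereas the input held 1000 µM of these. The pair of libraries of a replicate thus shared the cells, the fractionation and the ligation and differed by the dNTP supply, while the 3 replicates were biological replicates.

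U3 is the most abundant box C/D snoRNA. Most members of its class guide 2′-O-methylation by fibrillarin, but U3 is known for base-pairing with the pre-rRNA in the small-subunit processome, where it is needed for the cleavages that release 18S rRNA. It is bound by fibrillarin, NOP56, NOP58 and SNU13, and by the U3-specific protein RRP9. Its genes are transcribed individually by RNA polymerase II and lie in near-identical copies, so that short reads often match more than 1 of them.

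All members lie on chromosome 17 of hg38. SNORD3A covers 19188016 to 19188232 and SNORD3B-1 covers 19061912 to 19062128, both on the plus strand. SNORD3B-2 covers 19063920 to 19064136, SNORD3D covers 19112420 to 19112636 and SNORD3C covers 19190029 to 19190245, all on the minus strand. GENCODE annotates each as a noncoding gene that begins at U3, and extends it past the 3′ end of U3, to 218 nt for SNORD3D and to 581 to 791 nt for the others. Position 1 below is the first nucleotide of U3. The sequence of SNORD3A is printed whole because every result below is placed on it, with capitals at the 4 positions where at least 1 other copy has another base (hg38, sense strand, extents from RefSeq).
SNORD3A: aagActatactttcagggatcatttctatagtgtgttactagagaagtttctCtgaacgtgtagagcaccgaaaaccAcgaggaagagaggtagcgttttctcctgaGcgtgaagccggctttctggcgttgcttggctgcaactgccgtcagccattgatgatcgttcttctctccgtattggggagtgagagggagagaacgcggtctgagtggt

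Relative to SNORD3A, with its base written first, SNORD3B-1 and SNORD3B-2 carried A78C and were identical to each other. SNORD3C carried G108A. SNORD3D carried A4G, C53T and A78C and was 98.6% identical to SNORD3A. The stretches around position 53 are shown because it is the position where a copy, SNORD3D, has T in its reference, the base that imbalanced dNTP produces at Nm. Capitals mark position 53 within positions 43 to 63.
SNORD3A: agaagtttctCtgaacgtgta
SNORD3D: agaagtttctTtgaacgtgta

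The 4 differing bases set where reads could be told apart. Among windows of 50 nt, SNORD3A had at least 1 window without a second exact match in hg38 for 69 of its positions (59 to 127), and the number of such windows was highest, at 20, from position 78 to 108. SNORD3C had such windows at 99 positions and SNORD3D at 102 (1 to 102), and SNORD3B-1 and SNORD3B-2 had none. When position 53 was changed from C to T, 24 of the 50 windows of SNORD3A over that position, and as many of SNORD3C, became equal to SNORD3D. For SNORD3B-1 and SNORD3B-2 it was 49 of 50, and with C none was equal. Reads could be placed at up to 4 loci with up to 3 mismatches, so the copies are not replicates of each other and a value below is that of a locus, not of an independent RNA.

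Summed over its listed positions, U3 took 2.35%, 1.79% and 1.18% of the listed depth in replicates 1 to 3 under imbalanced dNTP, and 3.44%, 2.95% and 1.89% in the inputs. The whole libraries summed to between 17063930 and 34367262 base reads over listed positions, with a median depth of 10 to 23. Of the liver genes checked, all 6 (ALB, AFP, APOA1, APOB, TF and SERPINA1) had listed positions, as did the nuclear RNAs MALAT1 and NEAT1, whereas PTPRC, COL1A1, PECAM1 and VIM, markers of other cell types, had none.

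SNORD3A held nearly all U3 reads of the input, and under imbalanced dNTP its share was lower and that of SNORD3D higher. Of the summed depth of the 5 copies, SNORD3A took 97.8% ± 0.306 in the input and 75.3% ± 2.92 under imbalanced dNTP (SD, n = 3). SNORD3D took 0.871% ± 0.545 and 21.8% ± 2.75, respectively. The other copies stayed at small shares in both conditions, the highest being 1.26% ± 0.0908 for SNORD3B-1 under imbalanced dNTP. The plot of depth along the copies shows where in U3 these reads lay.

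**Figure D1:**
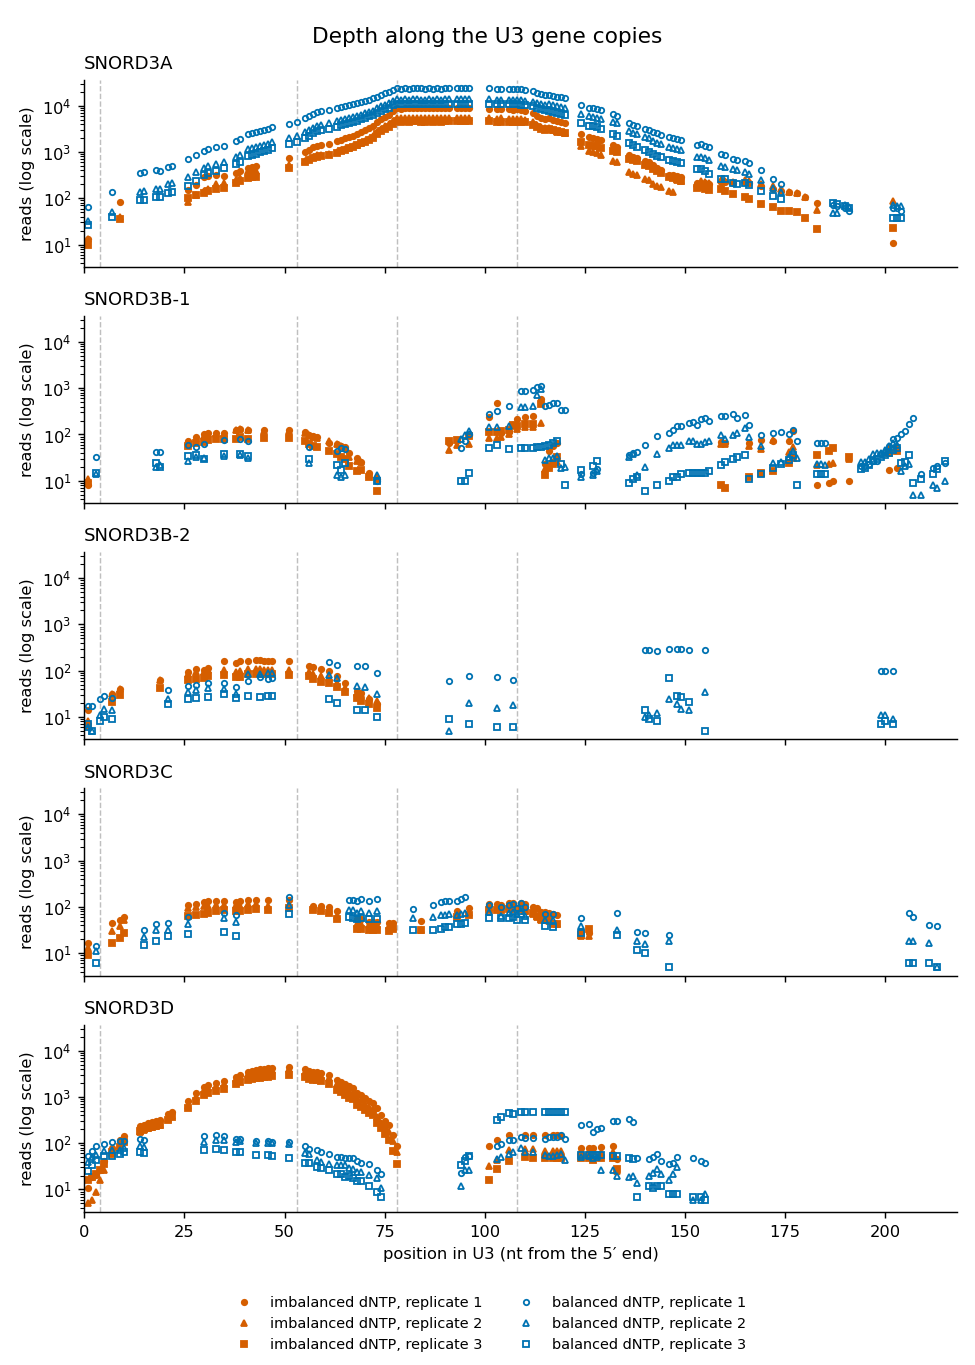
Reads (log scale) at each listed position of the 5 U3 copies, by position in U3, with 1 symbol per replicate, filled orange for imbalanced dNTP and open blue for the input. Dashed lines mark positions 4, 53, 78 and 108, where copies differ. SNORD3A forms a plateau between positions 78 and 108 in both conditions, and SNORD3D has a mound around position 51 under imbalanced dNTP that the input lacks.

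Averaged over the 101 SNORD3A positions listed in both tables, the depth was 3576, 2185 and 1968 reads under imbalanced dNTP and 11216, 6491 and 4979 in the inputs. Before normalization, every imbalanced library was below every input library. The input libraries were also larger, with 22974020 to 34367262 base reads over listed positions against 17063930 to 22485865. In the edgeR test across 987 genes, in which 10.6% were called lower and 11.0% higher, SNORD3A fell by 0.91 on the log2 scale (SE 0.07, adjusted p = 0.00123), a 1.88-fold lower depth. The median gene changed by -0.003.

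SNORD3D had 1307, 1111 and 843 reads over its 47 positions under imbalanced dNTP, against 112, 58 and 111 in the inputs. The groups did not overlap before normalization, and the lowest imbalanced library was several times above the highest input. Its depth rose by 4.18 on the log2 scale (SE 0.22, adjusted p = 0.000298), 18.1-fold, which placed it at rank 7 of the 987 genes from the top. SNORD3A was at rank 10 from the bottom.

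SNORD3B-2 had 104, 75 and 58 reads over 15 positions under imbalanced dNTP and 71, 52 and 22 in the inputs. Its libraries overlapped between the conditions before normalization, and each replicate was above its own input. The fitted change was 1.38 (SE 0.13, adjusted p = 0.00234).

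SNORD3C had 93, 74 and 64 reads over 18 positions against 107, 68 and 48 in the inputs, which also overlapped. Relative to the library normalization its depth rose by 0.71 (SE 0.06, adjusted p = 0.0019). This call was lost with DESeq2 (0.68, adjusted p = 0.0521) and without the replicate block (0.69, adjusted p = 0.128).

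SNORD3B-1 had 115, 72 and 67 reads over 32 positions against 241, 103 and 36 in the inputs, and did not pass the test (0.14, SE 0.23, adjusted p = 0.868). The replicates disagreed: its depth relative to the median position of the library moved by -0.07, 0.07 and 1.38 on the log2 scale in replicates 1 to 3. Without replicate 3 the fitted value was -0.09 (adjusted p = 0.806).

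The same comparison by single values gave a log2 depth ratio, relative to the median of all positions listed in both tables, of -0.83 ± 0.16 for SNORD3A and 4.27 ± 0.76 for SNORD3D (SD, n = 3). SNORD3B-2 stood at 1.52 ± 0.38, SNORD3C at 0.80 ± 0.09 and SNORD3B-1 at 0.46 ± 0.80. With 3 pairs an exact paired permutation test, two-sided, cannot go below p = 0.25, and p = 0.25 was reached by every copy except SNORD3B-1 (p = 0.75). All 10 pairs of copies were compared. SNORD3A was below SNORD3D by 4.26 to 5.83 in every replicate (mean difference -5.09 ± 0.79, exact p = 0.25, adjusted p = 0.278). SNORD3B-1 and SNORD3C were the pair whose difference changed sign between replicates, running from -0.87 to 0.49 (exact p = 0.5, adjusted p = 0.5). The other pairs, neighbours in the order included, kept their sign in 3 of 3 replicates, at the same adjusted p of 0.278.

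**Figure D2:**
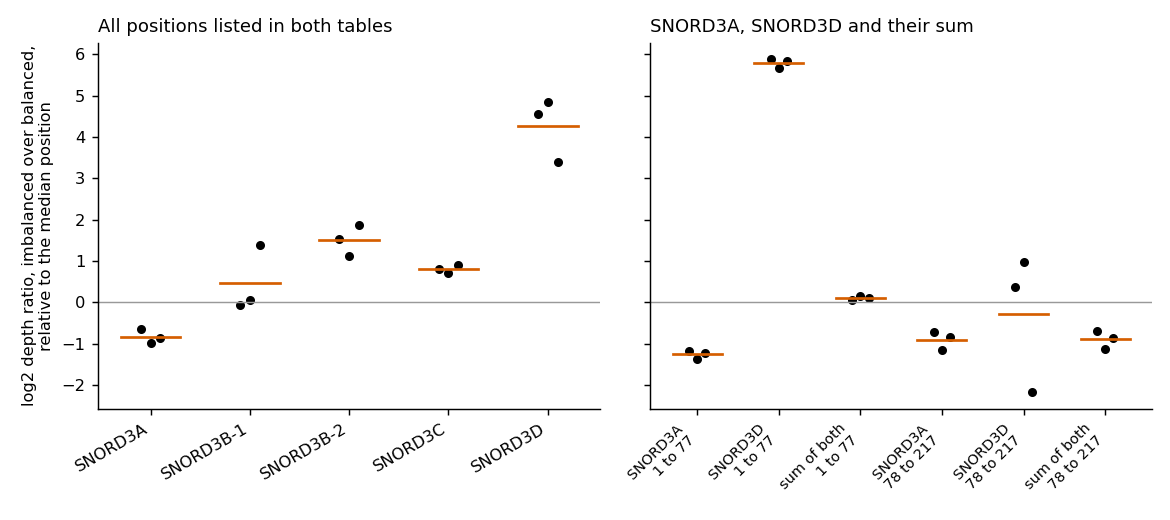
Log2 ratio of summed depth, imbalanced dNTP over input, relative to the median position of the library, with a dot per replicate and a bar at the mean of 3. Left, each copy over its positions listed in both tables, from -0.83 for SNORD3A to 4.27 for SNORD3D; right, SNORD3A, SNORD3D and their sum over positions listed in both tables for both copies, split at position 78, where the sum lies at 0.11 for positions 1 to 77 and at -0.89 for positions 78 to 217.

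The change of SNORD3D lay in the 5′ part of U3. At position 51, where it was deepest under imbalanced dNTP, it had 4446, 3947 and 2968 reads, against 106, 94 and 47 in the inputs. SNORD3A had 725, 514 and 452 reads there against 4095, 1992 and 1462. SNORD3D thus took 79.5%, 82.3% and 80.7% of the reads of the copies listed at position 51 under imbalanced dNTP and 2.43%, 4.28% and 2.97% in the inputs, where only SNORD3A, SNORD3C and SNORD3D were listed. At position 101 in the 3′ part, SNORD3A took 95.1%, 96.3% and 95.5% of the listed reads under imbalanced dNTP.

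Over the 23 positions from 1 to 77 that were listed in both tables for both copies, SNORD3A lay at -1.25 ± 0.09 and SNORD3D at 5.80 ± 0.11 on the log2 scale relative to the median position (SD, n = 3). The summed reads of both copies over the same positions lay at 0.11 ± 0.06. Each of these values had the same sign in all replicates (exact paired permutation p = 0.25, the smallest possible). Thus in the 5′ part the depth of SNORD3D was higher and that of SNORD3A lower, whereas their sum was close to the median position of the library.

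Over the 14 such positions from 78 to 217, SNORD3A lay at -0.90 ± 0.22 and the sum of both copies at -0.89 ± 0.21. SNORD3D lay at 0.36, 0.98 and -2.17 in replicates 1 to 3. The third value belongs to an input library that had 475 reads of SNORD3D at position 109, against 139 and 79 in the other inputs. When only positions 101 to 217 of U3 entered the gene test, SNORD3D was at -0.56 (adjusted p = 0.696) and SNORD3A at -0.95 (adjusted p = 0.00153). Whether reads with T at position 53 of other copies were placed at SNORD3D was not tested.

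By position, 202 U3 positions had 10 or more reads in every library and entered the edgeR test of depth across 32284 positions, of which 22.7% were called higher and 27.3% lower. Neighbouring positions share reads, so these counts describe stretches. For SNORD3A, 96 of 101 positions were lower and none was higher. SNORD3D had 27 of 42 higher and 1 lower, SNORD3B-1 16 of 28 higher and 4 lower, SNORD3C 13 of 18 higher and 2 lower, and SNORD3B-2 10 of 13 higher and none lower. DESeq2 called no U3 position lower outside SNORD3A. The median position changed by -0.97 in SNORD3A and by 4.52 in SNORD3D on the log2 scale, against -0.02 over all positions. Without the replicate block, 45 U3 positions in place of 66 were called higher and 30 in place of 103 lower. Over all positions 2863 in place of 7343 were then higher and 4447 in place of 8824 lower.

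The lowest SNORD3A value was at position 147 (-1.65, adjusted p = 2.24e-05), with 315, 139 and 276 reads against 2034, 1225 and 648. Its highest was at position 174 (0.36, adjusted p = 0.11). In SNORD3D the highest was at position 59 (6.68, adjusted p = 1.23e-14), with 3236, 2857 and 2170 reads against 64, 40 and 29, and the lowest at position 133 (-0.94, adjusted p = 0.0288). There 1 input library had 302 reads and the others 20 and 52, against 45, 25 and 27 under imbalanced dNTP, and this position was not called lower by DESeq2. Position 38 was the highest in both SNORD3B-2 (2.38, adjusted p = 2.77e-07) and SNORD3C (1.96, adjusted p = 3.94e-07). Their lowest was position 73 in both, at -0.38 (adjusted p = 0.357) and -0.46 (adjusted p = 0.0249). SNORD3B-1 ran from -2.17 at position 115 (adjusted p = 0.000408), where 1 input library had 415 reads and the others 28 and 56, to 1.98 at position 41 (adjusted p = 1.75e-06). Neither position 115 of SNORD3B-1 nor position 73 of SNORD3C was called lower by DESeq2.

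The mutation ratio, the share of reads with T at a G, A or C, was raised along U3 under imbalanced dNTP. A position was called a site where every replicate had at least 10 reads, at least 3 of them with T, and a ratio over 3 times its own input. Of the 303 listed U3 positions, 135 were called. The share over all listed positions was 16.8%. These criteria follow the study's methods, whose further comparison with a spike-in background was not applied here. Without the background comparison, 29651 of the 176343 listed positions were called. The study, with all its criteria, reported far fewer sites in caRNA, so a position called here is not necessarily one of its sites. How many of the 135 U3 calls would pass the background comparison was not tested. The imbalanced table held no position with fewer than 3 reads with T in all. The 135 calls fell on 85 positions of U3, of which 61 were called in a single copy and 6 in every copy.

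SNORD3A, the deepest copy, had 72 sites among 106 listed positions, at 34 of its 65 G, 19 of its 49 A and 19 of its 43 C. They ran from position 28 to 178, and their ratios were mostly small, with a median of 1.56% and 12 of them at 5% or more. SNORD3D had 26 sites of 69 listed positions with a median ratio of 4.92%. SNORD3C had 16 of 46 (9.96%), SNORD3B-2 11 of 28 (14.9%) and SNORD3B-1 10 of 54 (15.7%). These counts rest in part on unlisted inputs taken as a ratio of 0. Where the input had to be listed, SNORD3D had 8 sites, SNORD3B-2 7, SNORD3B-1 6 and SNORD3C 5, and SNORD3A 71. The median lowest depth of the sites was 2598 reads in SNORD3A, 553 in SNORD3D and 66 to 74 in SNORD3B-1, SNORD3B-2 and SNORD3C. A ratio as small as most of those in SNORD3A was thus not detectable at the depth of SNORD3B-1, SNORD3B-2 and SNORD3C. Over all 29651 sites of the tables the median ratio was 4.12%.

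**Figure D3:**
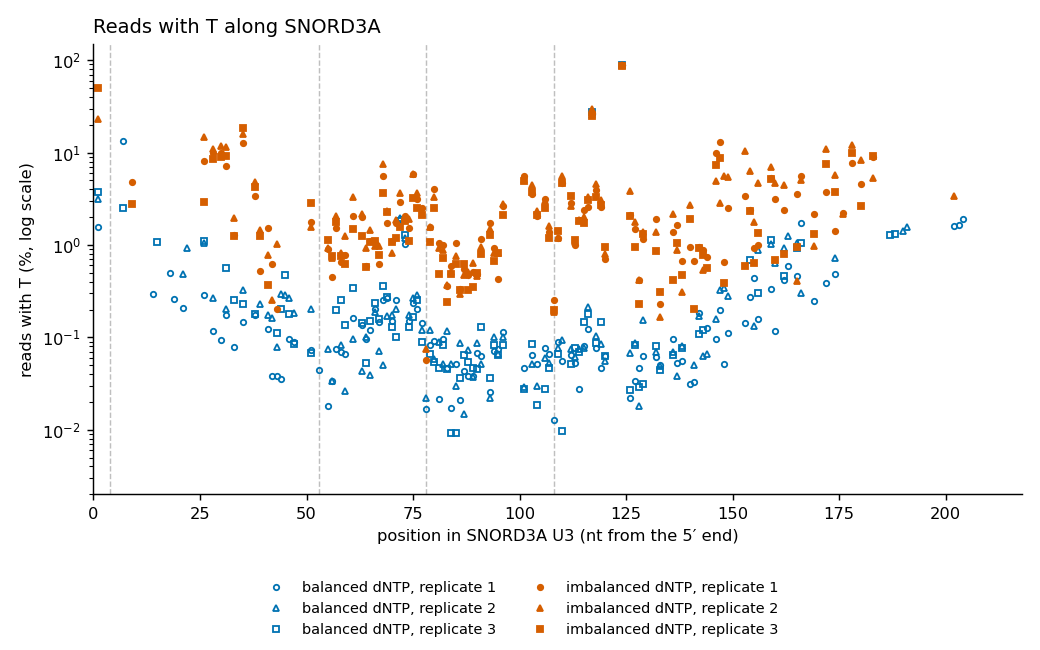
Mutation ratio (percent of reads with T, log scale) at each listed position of SNORD3A, by position in U3, with 1 symbol per replicate, filled orange for imbalanced dNTP and open blue for the input. Ratios of 0 are not drawn, and dashed lines mark positions 4, 53, 78 and 108. At most positions the orange symbols lie above the blue ones, while at positions 117 and 124 they coincide at 27.2% and 87.6%, and at positions 78 and 108 the orange symbols lie below their neighbours.

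In the edgeR test of reads with and without T, 133 of 202 U3 positions were higher under imbalanced dNTP and none was lower, against 73.9% higher and 0.0558% lower of all 32284 positions. SNORD3A had 93 of 101 higher, SNORD3D 18 of 42, SNORD3C 8 of 18, SNORD3B-1 7 of 28 and SNORD3B-2 7 of 13. The median change on the log2 scale was 3.02 over U3 and 3.94 over all positions. The share of U3 positions called higher did not exceed that of the tables as a whole.

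Over the 213 U3 positions with values in both conditions, T was in 3.23% ± 0.131 of reads under imbalanced dNTP and 1.37% ± 0.0642 in the inputs (SD, n = 3; higher in 3 of 3 pairs, exact paired permutation p = 0.25, the smallest possible). Without positions 117 and 124 these were 2.41% ± 0.201 and 0.14% ± 0.00841. These values pool the copies, whose shares of the depth differed between the conditions. With all positions, SNORD3A alone had 2.74% ± 0.107 and 1.34% ± 0.0803. SNORD3D had 5.06% ± 0.0383 and 4.95% ± 1.31 (higher in 2 of 3 pairs, exact paired permutation p = 0.75). Without positions 117 and 124 SNORD3D had 4.90% ± 0.0326 and 1.63% ± 0.744. The other copies were higher in 3 of 3 pairs either way. In SNORD3A, again without these positions, C read as T most often, at 2.22% ± 0.167, followed by G at 1.76% ± 0.176 and A at 1.40% ± 0.253. The inputs had 0.104% ± 0.0035, 0.0798% ± 0.00639 and 0.194% ± 0.0042, respectively. Differences between the bases were not tested.

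Positions 28, 30, 31 and 35, in the 5′ part of U3, and positions 57 and 63 were called in all copies. In 12 of these 30 calls the input was not listed and was taken as a ratio of 0. This was so for A57 in 4 copies, for G31 in 3, for A28 and A30 in 2 each and for A63 in 1, whereas G35 had a listed input in every copy. G35 had the highest ratio of the sites in SNORD3A. It was T in 39 of 309, 34 of 213 and 31 of 167 reads, or 12.6%, 16.0% and 18.6%, where the inputs averaged 0.234% ± 0.0922. In SNORD3D the same position gave 18.3%, 19.5% and 17.3%, in SNORD3B-1 26.9%, 37.5% and 32.1%, in SNORD3B-2 38.1%, 43.4% and 45.1%, and in SNORD3C 42.3%, 52.8% and 41.7%. The order was SNORD3A, SNORD3D, SNORD3B-1, SNORD3B-2 and SNORD3C; SNORD3A overlapped SNORD3D, SNORD3B-2 overlapped SNORD3C, and SNORD3B-1 lay between these pairs without reaching either. The ratio at G35 rose in every copy by the edgeR test, with adjusted p between 7.5e-35 in SNORD3A and 4.9e-06 in SNORD3B-1.

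A30 and A28 stood at 10.3% ± 1.47 and 9.75% ± 1.23 in SNORD3A against 0.0316% and 0.129% in the input. In SNORD3B-1 they reached 19.7% ± 2.42 and 24.8% ± 4.93, and in SNORD3B-2 18.1% ± 1.38 and 17.2% ± 0.875. G31 was at 9.31% ± 2.26 in SNORD3A and at 3.93% ± 0.761 in SNORD3D, its lowest copy. At A57 and A63 the contrast between copies was larger, since SNORD3A had 1.78% ± 0.257 and 1.81% ± 0.5, and the other copies 4.20% to 12.1% and 12.6% to 29.1%. A call in every copy needed at least 3 reads with T in each replicate, so copies with few reads entered only with high ratios. Differences in ratio between copies were not tested.

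**Figure D4:**
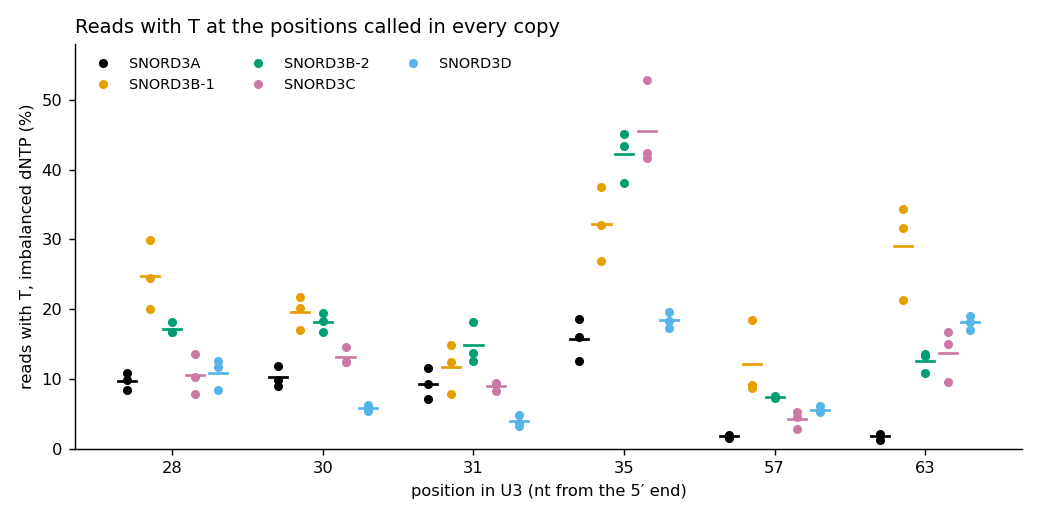
Mutation ratio under imbalanced dNTP (percent of reads with T) at the 6 U3 positions called in every copy, with a dot per replicate, a bar at the mean of 3 and a colour per copy. At positions 57 and 63 SNORD3A lies below all other copies, and at position 35 the means run from 15.7% in SNORD3A to 45.6% in SNORD3C.

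At the 17 positions listed under imbalanced dNTP in all copies, the median ratio was 2.27% in SNORD3A, 9.28% in SNORD3D, 10.6% in SNORD3C, 12.1% in SNORD3B-1 and 14.5% in SNORD3B-2. SNORD3A had the lowest ratio at 12 of them and the highest at 1. A position was listed only with at least 3 reads with T in all, so a copy with few reads could enter only with a high ratio. The lowest ratio at these positions was 0.897% in SNORD3A and 2.03% to 2.77% in the other copies. The order of the copies as a set thus cannot be read apart from this selection. SNORD3D, the lowest at 3 of these positions, had many reads at some of them. At A63 its ratio was 18.1% over 5708 reads, against 1.81% over 3681 in SNORD3A. At A30 it was 5.82% over 4114 reads, against 10.3% over 569 in SNORD3A. Depth also differed between the copies at these positions, and its part in the ratios was not tested.

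Further along SNORD3A, sites of 5% or more lay at A68 (5.61% ± 1.94), C101 (5.14% ± 0.347) and G110 (5.01% ± 0.483), the latter pair over many reads. The sum was 18629 reads at C101, with 5.53%, 5.03% and 4.87% in the replicates and 0.0344% in the input. In the 3′ part G146, C147, G159, C172 and G178 were at 5.83% to 9.97%, over fewer reads and with a wider spread. C147, for example, had 41 of 315, 4 of 139 and 24 of 276 reads with T. G178 was T in 10 of 130, 16 of 131 and 5 of 50 reads, and its input was not listed. C26 (8.62% ± 5.95) was a site in SNORD3D but not in SNORD3A, where replicate 3 had 3 of 102 reads with T, under 3 times its input.

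Position 1, the first nucleotide after the cap, was not called in any copy. SNORD3A had the required depth of 10 there in every replicate, but no read with T in replicate 1. Every other copy had a replicate below that depth. A1 was T in 11 of 14, 6 of 8 and 4 of 6 reads of SNORD3B-2 and in 11 of 17, 10 of 13 and 6 of 9 reads of SNORD3C. In SNORD3B-1 it was 1 of 8, 3 of 11 and 2 of 9, and in SNORD3D 1 of 11, 0 of 5 and 3 of 16. In SNORD3A it was 0 of 13, 3 of 13 and 5 of 10, so that the replicates ranged from 0% to 50% at this depth. The inputs averaged 7.52% ± 8.45 in SNORD3B-2, 7.42% ± 2.19 in SNORD3D and 2.80% ± 1.11 in SNORD3A. In SNORD3B-1 and SNORD3C the input was not listed.

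Positions 124 and 117 had the highest mean ratios of SNORD3A, in the input as well. C124 was T in 88.6%, 87.7% and 86.5% of reads under imbalanced dNTP and in 89.0%, 89.6% and 88.6% in the inputs, at depths of 1346 to 10323. C117 gave 26.7%, 29.8% and 25.0% against 26.5%, 25.6% and 27.8%. Both ranges overlapped in SNORD3A, and neither position was a site in any copy. C124 was T in 83.2% ± 6.24 of SNORD3C reads against 84.2% ± 4.99 in the input, and in 78.1% ± 4.88 of SNORD3D reads against 68.6% ± 19.6. C117 was T in 33.2% ± 4.97 of SNORD3C reads against 29.2% ± 12.3. In SNORD3B-1 it was T in 9 of 57, 4 of 25 and 1 of 23 reads against 106 of 471, 5 of 31 and 9 of 67. Neither difference at C117 passed the edgeR test (adjusted p = 0.592 and 0.355). In SNORD3D, C117 was higher under imbalanced dNTP, at 53.1% ± 11.8 against 31.4% ± 16.8 (log2 change 1.16, adjusted p = 0.00543), although the replicates of both conditions overlapped.

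Bases other than T also departed from the reference at fixed positions of SNORD3A in both conditions. G136C was in 86.0% ± 3.99 of reads under imbalanced dNTP and 89.7% ± 0.824 in the input, and G136A in 6.84% ± 2.53 and 8.91% ± 0.514. Position 136 was counted above as a G site of SNORD3A by its reference base, although G was in 109 of its 1951 reads under imbalanced dNTP and T in 23. G115A was in 15.2% ± 1.26 and 20.7% ± 0.959. SNORD3D had G136C in 83.0% ± 10 of its input reads as well. These mismatches count toward the 3 that a read may carry, and their effect on which reads were placed at each copy was not tested.

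At the positions that distinguish the copies, ratios were low or not listed in SNORD3A, position 4 being listed in neither table. A78 was T in 9 of 18686 reads under imbalanced dNTP (0.0438% ± 0.0389), where the 10 listed positions within 5 nt ranged from 0.322% to 4.96%. G108 was T in 40 of 18119 reads (0.214% ± 0.0339), against 1.07% to 5.01% at 8 listed neighbours, and was a site nonetheless. C53 had T in 2 of 8364 input reads of SNORD3A and was not listed under imbalanced dNTP, while 5 positions within 5 nt of it were listed at 0.644% to 2.08%.

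SNORD3D has T at position 53 in the reference, so no ratio exists there. At position 78, the 3′ edge of its mound, 185 reads were placed under imbalanced dNTP. Of these, 64.9% ± 1.23 had A, the base of SNORD3A and SNORD3C (C78A), and 29.1% ± 5.72 had T. Position 78 was counted above as a site of SNORD3D, the one with its highest ratio, although its input was not listed. Its position 4 was T in 7 of 68 reads (10.6% ± 2.54), within the 6.88% to 17.8% at listed positions within 5 nt.

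Other annotated U3 genes and pseudogenes numbered 55, of which 30 had listed positions. They held 217 listed positions under imbalanced dNTP, 106 of them sites, and 72 in the input, and of the 7 that could be tested for depth 4 were higher and none lower. Other snoRNAs of pre-rRNA processing (U8, U13, U14, U17 and U22, 10 genes) had 712 sites among 815 listed positions, and in depth 1 of them was higher and 2 lower. The largest of these depth changes was that of U13, SNORD13, at -0.62 (adjusted p = 0.00067). Of 8 genes for U3 proteins and their partners (FBL, NOP56, NOP58, SNU13, RRP9, MPHOSPH10, IMP3 and IMP4), NOP56 and NOP58 had positions listed under imbalanced dNTP, and of these NOP56 was higher in depth (0.24, adjusted p = 0.0121) and NOP58 had -0.04 (adjusted p = 0.879).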

How the data were processed

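The deposited tables hold counts of reads with each base per position and strand for each library. Per the authors' methods, adapters were cut with Cutadapt and duplicates were collapsed with BBMap by molecular identifiers. TopHat2 aligned the reads to hg38 (up to 4 places and 3 mismatches per read), and JACUSA called mutations to T; versions are not given in the sources used here. The deposited JACUSA score was not used. The reads are single-end, of 100 nt. Every listed position had a depth of at least 5 in each library of its table and at least 3 (imbalanced) or 1 (balanced) reads with T in all. An unlisted input position was taken as a ratio of 0, although it may have been unlisted for low depth. The comparison with the input was then passed by any ratio above 0.

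Positions were assigned to GENCODE genes and numbered from the RefSeq start of U3. The 2 annotated entries of SNORD3D were treated as 1 gene. Counts were tested with edgeR 4.0.16 (quasi-likelihood, Benjamini-Hochberg adjustment over all features, adjusted p under 0.05) with the replicate as a block, and with DESeq2 1.42.0 as an alternative. Depth was normalized by TMM, whereas the test of reads with and without T used the summed depth of the tested positions as library size. The edgeR tests by position used positions listed in both tables with 10 or more reads in every library. Gene depth used the mean over positions listed in both tables, rounded. The pooled share of reads with T used positions listed in both tables without that minimum. Ratios of single positions are given wherever the position was listed, also at lower depth or without a listed input. The SE is the log2 change divided by the root of the F statistic. Single values per pair were tested by exact permutation in Python 3.11. The block follows from the labels, which say the ligated product was divided; deviations in log2 depth of same-numbered libraries correlated at 0.746, 0.59 and 0.871 over 24432 positions. The tests were first tried on simulated data. The methods call the replicates biological, without saying how the cultures were separated. With the block, p-values measure how the difference between the paired reactions varied from replicate to replicate. In edgeR they also draw on read counts and on a spread estimated over all features. SDs include counting error. Uniqueness was the number of exact 50-nt matches in hg38, without alternate contigs.

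Positions named are the 10 with the highest mean ratio in the deepest copy, those where copies differ and those with the extreme depth ratios; the sites called in all copies, the SNORD3A sites of 5% or more, position 51 and positions 115 and 136 were chosen after their values were seen. The members, lists and tests were chosen with earlier results of these data known. Alternatives changed the filters, normalization, test, centring and replicates.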

Additional observations from a re-analysis of the deposited data

How the results depend on the processing

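SNORD3A, SNORD3B-2 and SNORD3D kept their direction and call in depth under every alternative run over all their positions, at -1.02 to -0.81, 1.02 to 1.52 and 3.95 to 4.58 on the log2 scale, leaving out each replicate included. SNORD3D was at -0.56 when only positions after the first 100 were used, a setting chosen after the data were seen, which leaves out its 5′ part; SNORD3B-2 had no position there. SNORD3C was no longer called with DESeq2 (0.68) or without the replicate block (0.69). SNORD3B-1, not called, turned to -0.0887 without replicate 3 and to -0.22 for positions after the first 100, and ran from -0.0887 to 0.46 as replicates were left out; its single-value ratio ran from -0.0017 to 0.73. At least 100 nt from position 53, SNORD3A stayed at -0.87 and SNORD3C, SNORD3D and SNORD3B-2 had no position.

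Sites numbered 45 at a ratio of at least 0.05 and 23 at 0.1, and 97 to 146 under the other criteria, 97 being where the input had to be listed. Leaving out a replicate gave 147 to 159. Over all listed positions, sites numbered 9286 at 0.05, 2980 at 0.1 and 18922 to 30075 under the other criteria. With a replicate left out they numbered 34165 to 38927. U3 positions with a higher ratio numbered 76 by Fisher's exact test in each replicate, 144 without the replicate block and 86 to 107 as replicates were left out. Over all 32284 positions, 26909 were higher without the block and 17763 to 18915 as replicates were left out. For Fisher's exact test no count over all positions is given, so its 76 cannot be set against a background. Of positions with a changed depth, 22 were higher at a depth of at least 50, where 125 U3 positions were tested in place of 202. Without the replicate block 30 were lower in place of 103. Over all positions, 6747 of 24432 were higher at that depth, and 4447 in place of 8824 were lower without the block. With the summed depth as library size the median of all positions moved to -0.19. U3 then had 61 higher and 107 lower, against 3349 and 14816 over all positions. With the median in place of the summed depth of a copy's positions, the single-value ratios became -1.35 for SNORD3A and 2.75 for SNORD3D, and SNORD3B-2 minus SNORD3D became -0.94. The share of T and the differences between copies kept their sign under all alternatives. Ratios as small as most of those in SNORD3A were not detectable at the depth of SNORD3B-1, SNORD3B-2 and SNORD3C. The causes of these changes were not tested.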
